A study of Homo sapiens with 3 samples.

Results

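Genes for collagens, laminins, matrix proteases and integrins were examined for trimethylation of lysine 9 on histone H3 (H3K9me3) in Jurkat cells, a human T cell leukaemia line. The members were the regions whose annotated genes had a symbol of the form COL, LAM, ADAMTS, ADAMTSL, ADAM, MMP, ITGA or ITGB followed by its number or letter. This selected 322 of 54116 regions and 61 of 7655 gene symbols, with 165 of 27178 regions in the CXCL12 library and 157 of 26938 in the control library. Of the 61 symbols, 58 belonged to the 7 families and 3 only resembled them by name. Both libraries came from Jurkat cells held for 90 min without serum. The CXCL12 cells then received the chemokine CXCL12 (SDF), a ligand of the receptor CXCR4, at 100 ng/ml for 15 min, and the control cells were left untreated. There was 1 library per condition, so no difference given here has a replicate check and no p-value is given. Signal is the authors' value per bin, averaged over a region or taken from its highest bin, and the number of reads behind it is unknown. The libraries hold no expression values, so the identity of the line was not checked against marker genes.

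Collagens and laminins are the structural proteins of connective tissue and basement membranes. ADAM and ADAMTS proteins and the matrix metalloproteinases (MMP) process matrix or cell surface proteins, and integrins, pairs of an alpha and a beta chain, are the receptors that bind cells to the matrix. Most of these genes serve fibroblasts, epithelia, muscle or testis, while T cells use a small set of leukocyte integrins for adhesion and migration. H3K9me3 is a mark of heterochromatin and of silenced genes.

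A promoter was annotated to 10.3% of member regions after CXCL12 and 10.2% in control, against 18% and 18.4% of all regions with a gene. This counts the promoter of any gene annotated to the region, so in some it was that of a neighbour and not of the member. Of the member genes, 3 had their start site inside a region in both libraries. They were ADAM12, ADAMTS20 and COL23A1, and each of these regions also held an annotated CpG island. A promoter window of 7500 bp before to 2500 bp after the start, which accounted for the deposited promoter count in 99.98% of 20541 regions with a single gene, was touched at 10 member genes after CXCL12 and at 10 in control. The promoters of the covered genes are shown, with that of ADAM20, a testis gene whose window was touched away from the start, as the one with the fewest CpGs. They were chosen after their values were seen. Sequences run from 250 bases before to 50 after the start and come from RefSeq, build GRCh38.p14, whose start site can differ from the one in the deposited annotation. CpG dinucleotides are in capitals. ADAM12 lies at chr10:126388428-126388727, ADAMTS20 at chr12:43552154-43552453, COL23A1 at chr5:178590344-178590643 and ADAM20 at chr14:70534955-70535254, all on the minus strand.
ADAM12: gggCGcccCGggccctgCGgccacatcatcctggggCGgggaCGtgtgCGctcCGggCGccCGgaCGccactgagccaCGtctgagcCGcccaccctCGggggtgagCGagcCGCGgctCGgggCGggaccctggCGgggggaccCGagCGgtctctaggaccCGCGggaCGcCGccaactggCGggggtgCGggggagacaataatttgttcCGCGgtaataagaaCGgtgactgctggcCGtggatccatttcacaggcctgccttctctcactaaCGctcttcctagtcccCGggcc
ADAMTS20: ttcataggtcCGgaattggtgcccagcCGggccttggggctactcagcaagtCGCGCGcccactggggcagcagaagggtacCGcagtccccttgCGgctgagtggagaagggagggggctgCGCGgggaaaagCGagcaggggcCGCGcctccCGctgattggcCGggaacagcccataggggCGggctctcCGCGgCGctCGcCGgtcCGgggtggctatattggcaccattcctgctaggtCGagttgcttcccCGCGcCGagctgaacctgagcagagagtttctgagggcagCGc
COL23A1: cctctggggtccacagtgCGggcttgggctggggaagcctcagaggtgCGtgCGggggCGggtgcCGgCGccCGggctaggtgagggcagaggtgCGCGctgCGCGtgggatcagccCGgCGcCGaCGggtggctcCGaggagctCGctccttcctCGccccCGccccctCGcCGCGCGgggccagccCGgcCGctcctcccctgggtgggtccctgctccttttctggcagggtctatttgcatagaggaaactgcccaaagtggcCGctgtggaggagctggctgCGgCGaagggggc
ADAM20: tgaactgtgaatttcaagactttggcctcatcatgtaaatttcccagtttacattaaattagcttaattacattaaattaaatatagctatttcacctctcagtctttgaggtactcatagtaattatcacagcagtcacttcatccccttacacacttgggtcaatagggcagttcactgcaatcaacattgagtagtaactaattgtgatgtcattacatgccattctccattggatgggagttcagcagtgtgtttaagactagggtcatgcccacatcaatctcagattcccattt

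These windows held 33 CpGs at ADAM12, 26 at ADAMTS20, 28 at COL23A1 and 0 at ADAM20, where the 22199 windows of protein-coding genes had a median of 21 (quartiles 7 and 31). The other genes touched away from the start had 36 at COL6A2, 25 at COL4A3BP, 24 at COL6A6, 22 at COL13A1, 20 at ITGB1BP3 and 1 at ADAM21, a range that overlaps that of the covered genes. ADAMTS15, also touched, had no matching promoter sequence and so no count. The GC box letters GGGCGG were found on either strand at ADAM12, ADAMTS20 and COL23A1, and in 56.3% of all protein-coding windows. CCAAT occurred at ADAMTS20 and ADAM20 and in 34.7% of all, and TATAAA occurred in none of the 4 and in 9.47% of all. The region over the ADAM12 start reached from −2.87 to 6.93 kb relative to it in CXCL12 cells, with a mean signal of 4.54, and from −3.87 to 4.93 kb in control cells, with 4.70. Over the COL23A1 start, the CXCL12 region had a signal of 6.21 and the control region 5.78, and both were also annotated to the kinase gene CLK4. At ADAMTS20, a protease known from pigment cell migration in mice, a single CXCL12 region of 5.8 kb had a signal of 5.31 over the start. The locus held 2 control regions, of which the one over the start measured 2.8 kb and had 8.51. Averaged over the whole locus, the signal was 5.31 in CXCL12 cells and 5.57 in control cells. At ADAM20 the window was touched from 0.333 to 2.73 kb after the start in CXCL12 cells, and from −8.87 to −6.27 kb relative to it in control cells. At the other genes the region also stopped short of the start. At COL13A1, a transmembrane collagen, it ended at −3.45 kb in CXCL12 cells, with a signal of 8.59, and at −3.85 kb in control cells, with 8.04. At ADAMTS15, a proteoglycan-cleaving protease, it ended at −6.27 kb with 6.84 in CXCL12 cells, and at −4.87 kb with 5.36 in control cells. At COL6A2, a type VI collagen chain, regions lay on both sides of the start in each library. The inner one began 1.97 kb after the start in CXCL12 cells and 3567 bp after it in control cells, there outside the window. The upstream control region ended at −3.63 kb.

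The families differed widely in how many of their genes carried H3K9me3 in or near the gene. ADAMTS genes, including the ADAMTS-like ADAMTSL genes, had a region at 15 of 24 members after CXCL12 (62.5%, exact 95% interval 40.6 to 81.2%) and at 14 in control (58.3%, 36.6 to 77.9%). MMP genes had one at 2 of 23 members in each library (8.70%, 1.07 to 28%). Over all 20056 protein-coding genes the share was 28% after CXCL12 and 27.9% in control. Collagens had 19 of 44 (43.2%, 28.3 to 59.0%) after CXCL12 and 20 of 44 (45.5%, 30.4 to 61.2%) in control. ADAM genes had 9 of 20 after CXCL12 and 8 in control, integrin alpha genes 7 of 18 and 5, laminins 2 of 12 and 3, and integrin beta genes 2 of 8 in both. The ADAMTS and collagen intervals lay above the share of all genes in both libraries, and the intervals of the other 5 families included it. For collagens and MMP genes this turned on a narrow margin. After CXCL12 the lower collagen bound was 28.35% and the upper MMP bound 28.04%, against 27.98% for all genes. The collagen counts include COL26A1, which is not among the members, and were not repeated without it. The intervals are not corrected for the number of comparisons. Genes differ in length and a long gene offers more room for a region, and lengths in hg19 were not available here, so these shares are not per length.

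**Figure D1:**
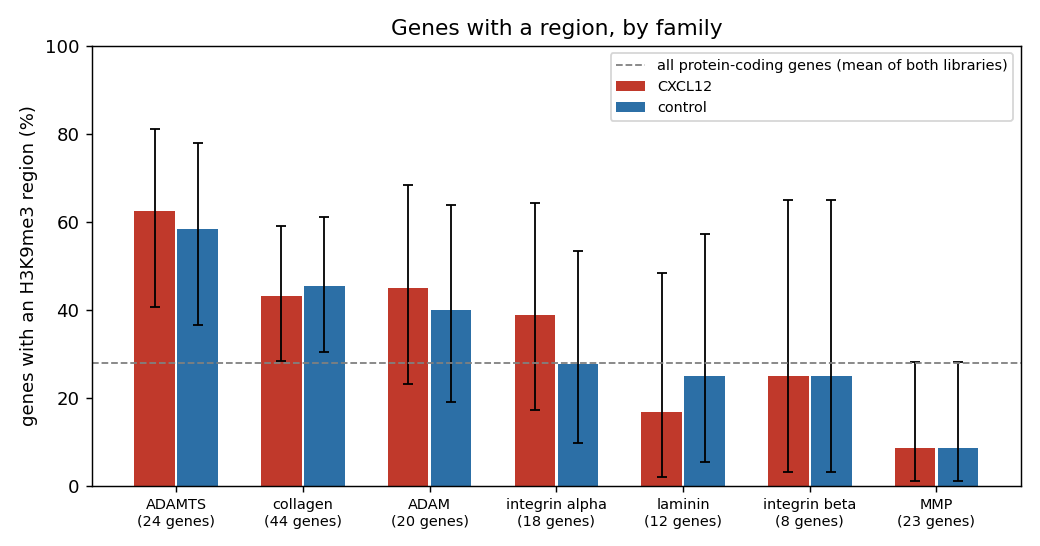
Percentage of the protein-coding genes of each family with an H3K9me3 region in the CXCL12 library (red) and the control library (blue). Bars are shares, whiskers are exact 95% binomial intervals, and the dashed line is the share of all protein-coding genes. ADAMTS genes stand highest at 62.5% and 58.3% and MMP genes lowest at 8.70% in both libraries.

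Most regions lay inside the genes, and few of these were near the start. After CXCL12, 131 of 165 regions (79.4%) were in the gene, against 120 of 157 (76.4%) in control, where 65.1% and 65.0% of all gene entries were so placed. The highest bin of the regions inside member genes was a median of 96.9 kb from the gene start after CXCL12 and 97.4 kb in control, against 66.3 and 64.8 kb over all genes. It came within 10 kb of the start in 6 of 131 CXCL12 regions (4.58%) and 3 of 120 control regions (2.5%), where 10.5% and 11.1% of all regions in genes did so. These distances were not set against gene length, and 1 gene can give many regions. Of the 131 CXCL12 regions, ADAMTS17 gave 15 and ADAM12 gave 13. Whether a region falls on an exon or an intron is not given in the deposited annotation. CpG islands lay in 10.3% of CXCL12 and 8.92% of control member regions, against 6.88% and 7.20% of all regions with a gene.

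ADAMTS2 carried by far the most H3K9me3 of the members. It encodes the protease that removes the N-terminal propeptide of fibrillar procollagens and lies on the minus strand of chromosome 5. Regions inside the gene covered 205 kb in CXCL12 cells and 205.4 kb in control cells, which ranked 10 among all genes by length called inside the gene in both libraries. They filled 92.6% of the stretch from 17 to 238.4 kb after the start in CXCL12 cells, and 92.7% of the stretch from 16.6 to 238.2 kb in control cells. No region was listed over the start itself. The nearest region on the upstream side ended at −14.8 kb in CXCL12 cells and at −9.97 kb in control cells.

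The signal over ADAMTS2 was also the highest among the members and nearly equal in both libraries. At the locus farthest along the gene (hg19 chromosome 5, 178534000 to 178570799) the mean was 25.5 after CXCL12 and 24.8 in control, with highest bins of 107 and 86. The neighbouring loci within the gene had 17.9 and 19.3 (178572400 to 178600799), 16.6 and 16.5 (178601600 to 178675199), 16.0 and 16.3 (178679000 to 178704399), and 10.9 and 10.6 (178711000 to 178755799). Log2 ratios of CXCL12 to control over these loci ran from −0.11 to 0.04. The flanks were called differently in the libraries. Downstream, towards the zinc finger gene ZNF354C, a single CXCL12 region of 55.8 kb had a mean of 10.3, and 5 control regions of 52.2 kb in all had 10.3. Upstream, 2 regions of 23.2 kb in all had 9.94 in CXCL12 cells, and a single one of 35 kb had 7.83 in control cells.

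ADAMTS17 held the most separate loci of the members, 16 in all, and every one of them lay inside the gene. ADAMTS17 and ADAMTS10 encode proteases tied to fibrillin microfibrils. On chromosome 15, between 100524600 and 100860799, ADAMTS17 regions summed to 124.2 kb in CXCL12 cells and 115.2 kb in control cells, and 13 of the 16 loci were called in both. The strongest (100707400 to 100718799) had a mean of 12.3 after CXCL12 and 12.7 in control, with highest bins of 35 and 32. The mean was higher after CXCL12 at 9 of the 13 shared loci and lower at 4. ADAMTS17 held both extremes of its family. At 100854400 to 100860799, 21.4 kb from the start at its nearest, the mean was 8.69 and 6.55 (log2 ratio 0.41), with highest bins of 23 and 17. At 100607200 to 100610199 it was 4.08 and 6.21 (−0.61), over 3.00 and 2.20 kb, while the highest bins were 12 and 11. A CXCL12-only region of 1 kb (100852000 to 100852999) had 6.66, the highest of the single-library loci in the family, and lay 1.4 kb from the nearest control region.

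**Figure D2:**
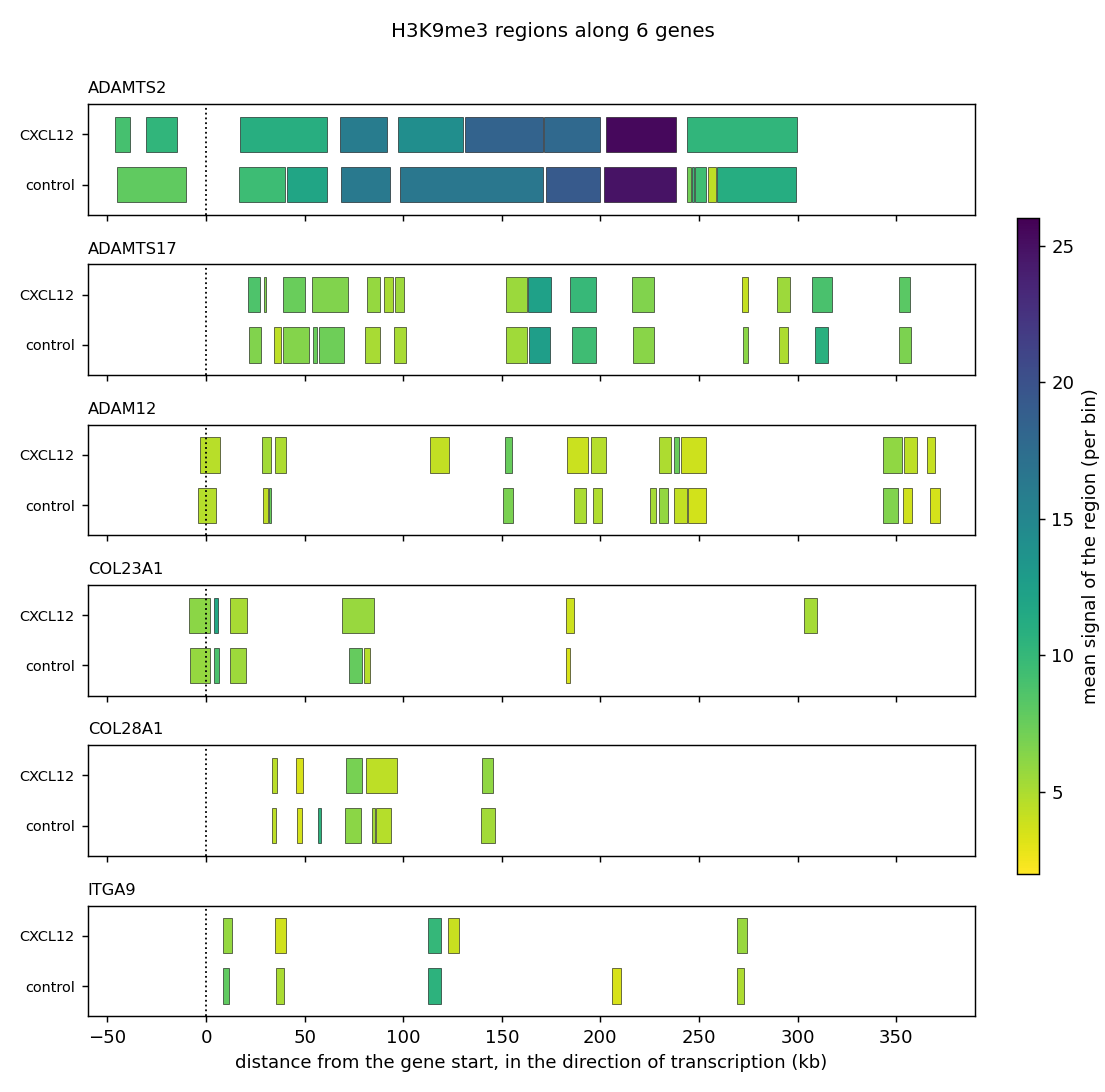
H3K9me3 regions along 6 genes, with distance from the gene start in kb on the x axis and the CXCL12 library above the control library. Boxes are the regions of all loci at the gene, coloured by mean signal. ADAMTS2 is filled from about 17 to 238.4 kb with the strongest signal (25.5 and 24.8) at the far end, and ADAM12 and COL23A1 have a region across the start.

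The other ADAMTS genes had 8 loci or fewer each. ADAMTS12 had 8 loci with 43.8 kb called in CXCL12 cells and 34.6 kb in control cells, of which 5 were shared. ADAMTS16, on the same chromosome, had 4 loci, all shared, led by one of 20 and 15 kb at its 3′ flank (5322800 to 5342799) with a mean of 7.43 and 7.37. ADAMTSL1 had 4 shared loci with 26 kb in CXCL12 cells and 21.6 kb in control cells. ADAMTS14, another procollagen N-proteinase, had a region of 3.80 kb with a mean of 10.2 downstream of the gene in CXCL12 cells, and 6.20 kb with 7.84 in control cells. ADAMTS18 had a pair of loci called after CXCL12 only (means 4.01 and 3.30), ADAMTSL2, tied to fibrillin microfibrils, had 1 (6.02), and ADAMTS1 had 1 in control only (3.44), so these 3 genes have no ratio. ADAMTS10 had a single locus on chromosome 19, with 6.94 and 6.71. ADAMTS6 had a shared locus on chromosome 5, with 4.87 and 3.97, and one called after CXCL12 only, with 3.41. The strongest control-only locus of the family was in ADAMTS19 (chromosome 5, 128915200 to 128916599), with 4.41 over 1.4 kb and the nearest CXCL12 region 59 kb away.

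ADAMTSL3, an ADAMTS-like glycoprotein of the matrix, had longer regions with a lower mean after CXCL12 along most of the gene. Of its 7 shared loci on chromosome 15, 6 had a lower mean after CXCL12, and the regions were longer at 6. The highest bin was higher at 6. At 84644000 to 84651599, for example, the mean was 5.60 over 7.60 kb in CXCL12 cells and 8.01 over 3.60 kb in control cells (log2 ratio −0.52), with highest bins of 21 and 17. The remaining shared locus (84424400 to 84428599) had 5.46 over 3.20 kb and 4.25 over 4.00 kb.

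Among the ADAM genes, ADAM12 carried many regions along the whole gene, while the strongest single loci were in ADAM22 and the testis genes. ADAM12 encodes a protease of muscle, bone and placenta. Its 13 loci on chromosome 10 spanned 127704800 to 128080999, with 92.8 kb called in CXCL12 cells and 68.8 kb in control cells. The mean over the loci was 4.74 and 4.91, where the median region of the whole library had 5.10 and 5.06 (first quartile 4.08 and 4.02). Of the 13 loci, 10 were shared, and the mean was higher after CXCL12 at 5 of them and lower at 5. The strongest single-library loci of the family were also here. A CXCL12-only region (128036400 to 128042199) had a mean of 4.93, 1.80 kb from the nearest control region, and a control-only region (127849000 to 127851999) had 5.27, 1.6 kb from the nearest CXCL12 region.

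The highest ADAM signals lay in ADAM22, ADAM20 and ADAM32. ADAM22 lacks protease activity and is a neuronal receptor for the LGI proteins. A locus inside it (chromosome 7, 87656400 to 87664199) had a mean of 10.4 after CXCL12 and 10.5 in control. At ADAM20 (chromosome 14, 70982600 to 70991599) it was 11 and 8.22 (log2 ratio 0.42), with highest bins of 29 and 23. Inside ADAM32, another testis gene, a locus on chromosome 8 (39034600 to 39042599) had 7.52 over 8 kb after CXCL12 and 11.4 over 4.2 kb in control (−0.60), with highest bins of 45 and 53. ADAM18, a sperm surface protein gene on the same chromosome, had the highest ratio of the family, with 8.62 and 6.41 (0.43). Upstream of ADAM21 the mean was 6.99 over 12.6 kb and 7.63 over 9 kb, with highest bins of 31 and 29. Downstream of ADAM29, another testis gene, a pair of shared loci on chromosome 4 had 5.29 and 5.07, and 3.54 and 3.66. Downstream of ADAM30, also of testis, a locus of 1.6 kb on chromosome 1 had 3.21 and 3.69. ADAM20 and ADAM21 are close copies of each other, and whether reads were split between them was not tested.

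ADAM10, the protease that releases the Notch and amyloid precursor ectodomains and is widely expressed, had 4 loci inside the gene on chromosome 15. A total of 17.6 kb was called there in CXCL12 cells and 8.60 kb in control cells, and a pair of the loci was called after CXCL12 only. Of these, the locus at 58995200 to 58998599 had a mean of 4.30 and lay 43.0 kb from the nearest control region. The other (58944400 to 58946999) had 2.94 and lay 0.600 kb from one. At the shared loci the mean was 5.04 and 6.12, and 3.85 and 3.29.

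Collagen genes were listed in each structural class. Of the 11 fibrillar collagen genes, which include those of the main fibres of skin, bone and cartilage, 3 had a region (COL5A1, COL24A1 and COL27A1). A region was listed at 4 of 6 type IV collagen genes of basement membranes, 3 of 5 type VI and related beaded filament genes, and 2 of 10 fibril-associated genes. It was listed at 3 of 4 transmembrane collagen genes and at both multiplexins, COL15A1 and COL18A1. The share of all protein-coding genes in either library was 30.0%, the numbers per class are small, and no difference between classes was tested. One of the 44, COL26A1, was listed under its older symbol EMID2 and is not among the 61 members.

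COL20A1, a fibril-associated collagen, had the highest mean signal of the collagens. Its locus downstream of the gene (chromosome 20, 61959200 to 61968999), also annotated to the acetylcholine receptor gene CHRNA4, had a mean of 14.0 after CXCL12 and 13.8 in control, with highest bins of 53 and 48. Within COL6A2, a chain of the type VI beaded filaments, a locus on chromosome 21 (47520000 to 47540599) had 10.1 over 19.6 kb and 10.5 over 19 kb. COL5A1, a regulator of fibril diameter, had 8.93 and 10.5 at a locus downstream of the gene (chromosome 9, 137735800 to 137747799). It also held the strongest CXCL12-only locus of the collagens (137636000 to 137640399), with a mean of 9.33 over 4.40 kb, 77.8 kb from the nearest control region. The strongest control-only locus was in COL28A1 (chromosome 7, 7517000 to 7518799), with 10.6 over 1.80 kb, 7.60 kb from the nearest CXCL12 region.

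COL23A1, a transmembrane collagen, had a region across its start and further loci inside the gene. The region across the start reached from −8.44 to 1.96 kb in CXCL12 cells and from −8.24 to 2.16 kb in control cells. Of the 6 COL23A1 loci on chromosome 5, 5 were shared, with 48.2 kb called in CXCL12 cells and 32.6 kb in control cells. A short locus 4.16 kb after the start (178010800 to 178013399) had a mean of 11.6 after CXCL12 and 8.90 in control, over 2.00 and 2.60 kb, and highest bins of 57 and 56. The deepest locus (177707600 to 177714199), with 5.28, was called after CXCL12 only and lay 119 kb from the nearest control region.

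Type IV collagen chains had near-equal levels in both libraries, apart from COL4A3. COL4A1 had a mean of 6.06 over 9 kb in CXCL12 cells and 5.74 over 13.6 kb in control cells (chromosome 13, 110823000 to 110836599). A COL4A2 locus (111035800 to 111045399) had 7.31 and 7. The COL4A3 locus lay downstream of the gene, beside MFF (chromosome 2, 228183000 to 228188399), and had 7.20 over 3.00 kb and 5.14 over 5.40 kb (log2 ratio 0.49).

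The remaining collagen genes spanned a wide range of levels. Both multiplexins, whose C-terminal fragments include endostatin, also had a locus called in a single library. COL15A1 had a pair of shared loci, with 5.63 and 5.07, and 5.6 and 5.73, and a control-only locus of 2 kb with 9.26 (chromosome 9, 101754000 to 101755999). COL18A1 had 7.74 and 9.17 at a shared locus beside SLC19A1, and a CXCL12-only locus of 7.4 kb with 6.11 (chromosome 21, 46861800 to 46869199). COL22A1, a collagen of tissue junctions such as that of muscle and tendon, had 5 loci inside the gene, and its strongest (chromosome 8, 139712200 to 139717199) had 10.7 over 4.2 kb and 8.36 over 5 kb. COL24A1 and COL27A1, fibrillar collagens, had weaker loci, with highest means of 5.96 and 7.27 for COL24A1, and 4.06 and 3.77 at the single COL27A1 locus. Downstream of COL6A1, the partner chain of COL6A2 in type VI collagen, the mean was 7.6 and 7.24. COL6A6 had shared loci with 4.49 and 3.64, and 3.17 and 3.45. It also had a control-only locus of 3.2 kb upstream with 6.65, and a CXCL12-only locus of 7 kb inside the gene with 2.56. COL4A4 had a shared locus with 4.07 and 4.13, and a CXCL12-only locus of 1.2 kb with 4.68.

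The highest ratio of the family was at COL25A1 and the lowest at COL8A1. Upstream of COL25A1, a transmembrane collagen of neurons (chromosome 4, 110233400 to 110245999), in a locus whose CXCL12 region was not itself annotated to the gene, the mean was 7.61 over 4.80 kb after CXCL12 and 5.37 over 12.6 kb in control (0.50), with highest bins of 23 and 21. Downstream of COL8A1, a short-chain collagen of vessel walls and cornea (chromosome 3, 99520400 to 99526399), it was 6.01 over 5.40 kb and 8.37 over 3.60 kb (−0.48), with highest bins of 23 and 28. In COL25A1 a control-only locus (109933000 to 109935399) had a mean of 6.72, and the nearest CXCL12 region was 279.4 kb away.

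Laminin genes held 4 loci and MMP genes 3. LAMA2, the laminin chain of muscle basement membrane, had the single shared laminin locus (chromosome 6, 129317200 to 129319799), with a mean of 5.73 over 1.40 kb after CXCL12 and 4.56 over 2.60 kb in control. LAMA3, a chain of the skin laminin, had a CXCL12-only locus of 1.6 kb with 3.62 and a control-only locus of 2.20 kb with 2.68, 58.8 kb apart. LAMA5 had a control-only locus of 3.20 kb with 6.65 (chromosome 20, 60921400 to 60924599), and the nearest CXCL12 region was 191.6 kb away. No region lay inside an MMP gene. Downstream of MMP20, the enamel protease (chromosome 11, 102433200 to 102441599), the mean was 7.36 and 8.03. A control-only locus of 1 kb, also downstream of MMP20 (102445800 to 102446799), had 3.93. Downstream of MMP2, a gelatinase (chromosome 16, 55545600 to 55549199), it was 4.62 over 2.80 kb and 3.72 over 1.6 kb, and that locus was also annotated to LPCAT2.

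The integrin genes with H3K9me3 encode chains of epithelial, matrix-binding, platelet and myeloid receptors. No region was listed in either library for 6 integrins of T cells looked up by name, ITGAL, ITGA4, ITGB1, ITGB2, ITGB7 and ITGAE. A count of 0 in 6 genes allows a share of up to 45.9%, which includes the 28% of all protein-coding genes. The 6 are not a full list of the chains that T cells can carry. ITGA1, ITGA6 and ITGAV were not on it and had regions, so the lookup does not speak for T cell integrins as a set. ITGA9, a receptor for tenascin, had 6 loci on chromosome 3, 4 of them shared. The strongest (37606200 to 37612999) had a mean of 10.0 after CXCL12 and 10.6 in control, with highest bins of 33 and 35. At 37502600 to 37506999 it was 5.8 over 4.40 kb and 7.83 over 2.80 kb, the lowest ratio of the alpha chains (−0.43), and the highest bin was 14 in both libraries.

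ITGA6, a laminin receptor chain, had a locus downstream of the gene (chromosome 2, 173373400 to 173382199) with 8.89 and 10.1. It also had one upstream (173282200 to 173284199) with 5.62 and 4.14, the highest ratio of the alpha chains (0.44). ITGAD, a chain of myeloid cells, had 7.84 and 6.63 inside the gene on chromosome 16, with highest bins of 21 and 13. ITGAM, the myeloid chain CD11b, had a shared locus with 5.30 and 5.18, and a control-only locus of 1.6 kb with 3.63. ITGA1, a collagen receptor chain, had 4 loci of 1.2 to 3.00 kb, 2 in each library, and none was shared. ITGA11, also a collagen receptor chain, and ITGAV each had a single locus called after CXCL12 only, with means of 4.23 and 3.88.

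ITGB6, the epithelial beta chain that takes part in activation of TGF-beta, carried the longest integrin domain. The locus at its 3′ end, shared with PLA2R1 (chromosome 2, 160915600 to 160956799), had a mean of 6.93 over 39.8 kb in CXCL12 cells and 8.20 over 31.2 kb in control cells. A shared locus inside ITGB6 (161038000 to 161044199) had 4.77 and 4.56, the highest ratio of the beta chains (0.07). Another (160970600 to 160972399) had 3.78 and 3.96. A CXCL12-only locus in ITGB6 (161001600 to 161006199) had 3.38. ITGB3, the beta chain of platelets, had 4.10 over 6.20 kb and 4.53 over 4.2 kb on chromosome 17.

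The 3 symbols caught by name alone were COL4A3BP, ITGB3BP and ITGB1BP3. COL4A3BP, the ceramide transporter gene, had 5 loci with 24.2 kb in CXCL12 cells and 18.2 kb in control cells, and mean signals of 5.26 and 5.31. ITGB3BP, a centromere protein gene, had 5.38 and 4.64 at 1 locus. ITGB1BP3, a nicotinamide riboside kinase gene, had 8.53 and 7.24 at a locus upstream of the gene shared with ATCAY.

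**Figure D3:**
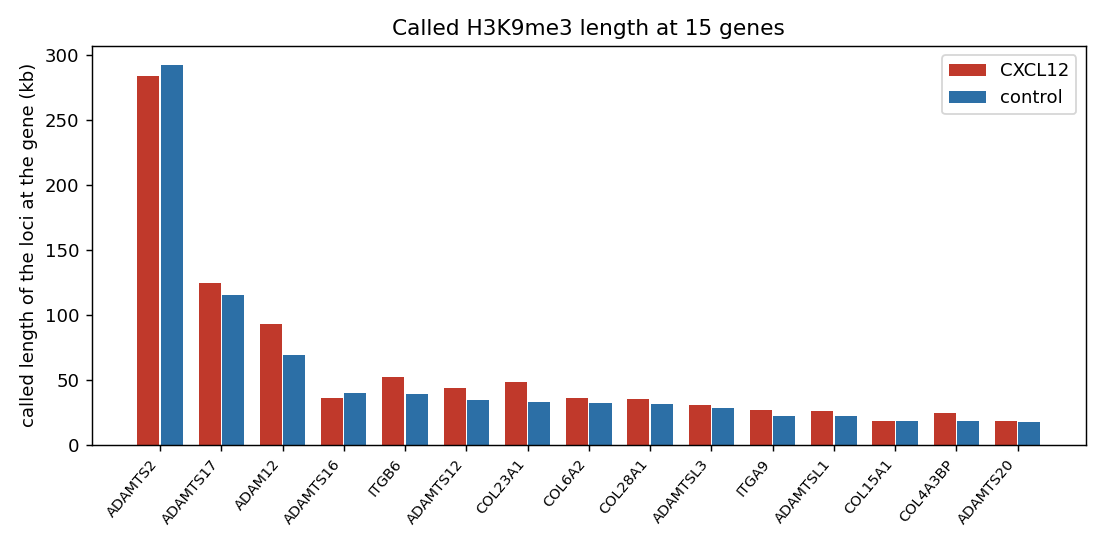
Called H3K9me3 length in kb, summed over all loci at the gene, for the 15 member genes with the most called length in control, with CXCL12 bars (red) left of control bars (blue). There is 1 library per bar and no error. ADAMTS2 stands apart with 284 and 292.6 kb, and ADAM12 has 92.8 and 68.8 kb.

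Stimulated and unstimulated cells were then compared at these genes. More DNA was called after CXCL12, with 1261 kb at the member loci against 1118 kb in control, and 965 kb of it was common to both. The member regions alone summed to 1232.8 kb after CXCL12 and 1044.2 kb in control. All regions with a gene, each counted once, summed to 76552 kb and 72153 kb. Called length was longer after CXCL12 at 39 of the 55 member genes with a locus in both libraries (70.9%) and shorter at 15 (27.3%). The background for these counts is that 58.6% of 6692 genes were longer and 36.1% shorter. Length was at least 2-fold longer at 2 of the 55 (ADAM10 and ADAMTS9), against 4.29% of all genes, and at least 2-fold shorter at 1 (COL25A1), against 2.47% of all. ADAMTS9, a protease of large proteoglycans, had 4.60 kb in CXCL12 cells and 1.80 kb in control cells. By family, length was longer after CXCL12 at 14 of 19 collagens, 6 of 9 ADAM genes, 8 of 13 ADAMTS genes, 5 of 5 integrin alpha genes, 2 of 2 integrin beta genes, 2 of 2 MMP genes and 0 of 2 laminins. No difference between families was tested.

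Of the 182 member loci, 131 were called in both libraries (72.0%, exact 95% interval 64.9 to 78.4%), against 73.3% of all 29404 loci. The interval treats loci as independent, though many share a gene, so it may be too narrow. A further 32 (17.6%) were called after CXCL12 only and 19 (10.4%) in control only, where 14.6% and 12.2% of all loci were. Single-library loci were short and weak. Their medians were 2.90 kb and a signal of 3.97 for CXCL12 only, and 2.60 kb and 3.93 for control only. Shared loci had 6.20 kb and 5.66 in CXCL12 cells, and 5.40 kb and 5.73 in control cells.

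Where both libraries had a region, their mean signals were nearly the same. The median log2 ratio at member loci was 0.03 (quartiles −0.13 and 0.17), against 0.04 over all 21541 shared loci (−0.12 and 0.20), and it was above 0 at 71 loci (54.2%, against 57.0% of all) and below at 60. None of the 131 was at least 2-fold higher or lower, where 0.116% of all shared loci were higher and 0.176% lower. Ratios ran from −0.61 to 0.50. At 1.5-fold, 0 were higher, against 2.28% of all, and 2 were lower, against 1.92% of all, namely the ADAMTS17 and ADAM32 loci given above. By the highest bin the median was 0.13, against 0.07 over all. It was higher after CXCL12 at 80 loci (61.1%, against 52.4% of all) and lower at 39, against 7807 of all 21541. The highest bin was at least 2-fold higher or lower at none, against 0.696% and 0.279% of all. By summed signal the median was 0.15, against 0.11 over all. Here 3 loci were at least 2-fold higher, against 2.84% of all, in COL23A1, ADAMTS12 and downstream of MMP2, and none was lower, against 0.998% of all.

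**Figure D4:**
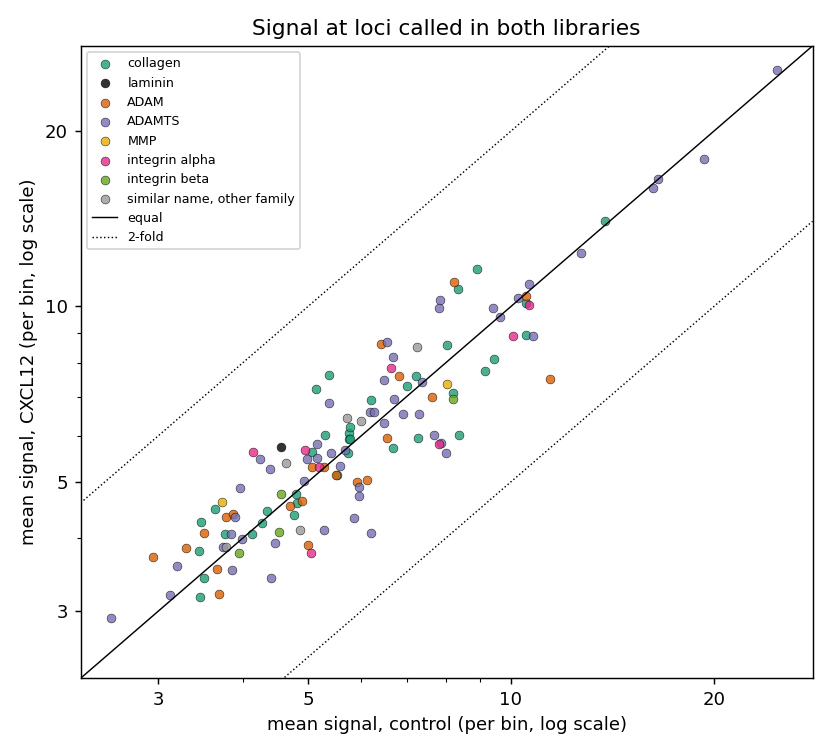
Mean signal in the CXCL12 library (y axis) against the control library (x axis) at the 131 shared member loci, both on log scales and coloured by family. The solid line marks equal signal and the dotted lines 2-fold differences. All points lie between the dotted lines, and the ADAMTS2 loci sit at the upper right with 25.5 and 24.8 at the highest.

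Regions were at least 2-fold longer after CXCL12 at 5 shared member loci, against 5.55% of all, in COL24A1, ADAMTS12, COL23A1 and, at a pair of loci, ADAMTSL3. They were at least 2-fold shorter at 1, the COL25A1 locus, against 2.85% of all. The mean signal moved against the called length. Where the regions were longer after CXCL12 (83 loci) the mean was lower at 48, with a median log2 ratio of −0.04, and where they were shorter (42 loci) it was higher at 34, with a median of 0.20. The same split over all shared loci gave −0.06 and 0.19. Spearman's rho between the length ratio and the mean ratio was −0.570 over the 131 loci, which share their 2 libraries and, in part, their genes, and −0.617 over all shared loci. With the highest bin it was 0.119 and −0.007. The mean of a region depends on where its edges were called, and the part of this in the ratios at ADAMTSL3 or ADAM32 was not tested.

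**Figure D5:**
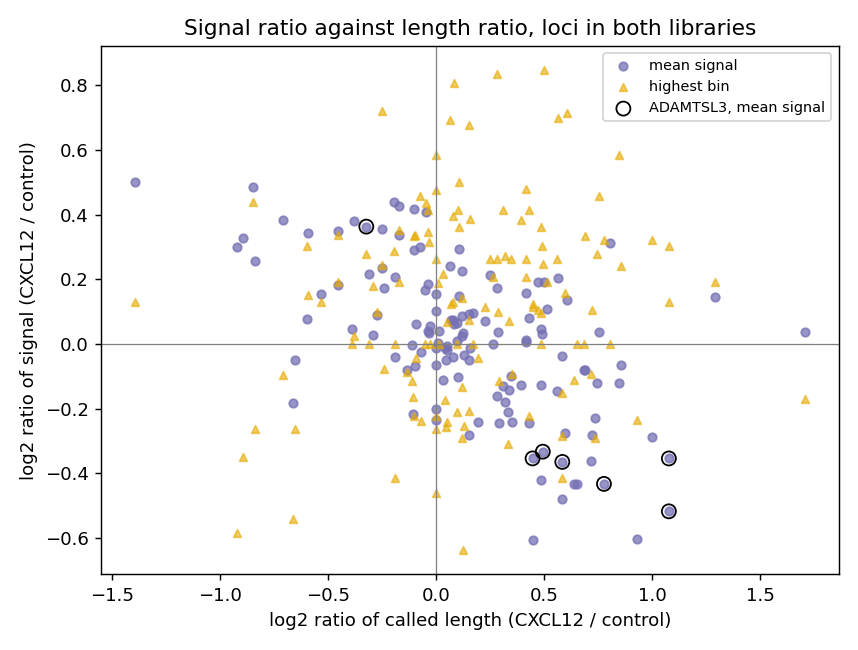
Log2 ratio of signal (CXCL12 over control, y axis) against log2 ratio of called length (x axis) at the 131 shared member loci, for the mean signal (circles) and the highest bin (triangles), with the ADAMTSL3 loci ringed. The circles slope down (rho −0.570) and the triangles show little slope (0.119).

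Other genes of the matrix and of integrin attachment were marked at a share near that of all genes. Of 60 such genes looked up, 19 had a region after CXCL12 and 20 in control, and 20 in either library (33.3%, exact 95% interval 21.7 to 46.7%), where the share of all protein-coding genes in either library was 30.0%. FRAS1, a protein of epithelial basement membranes, had 11 loci with 36.4 kb in CXCL12 cells and 31.2 kb in control cells. The highest signals were at FBN3, a fibrillin (13.7 and 14.0), and THBS2, a thrombospondin (11 and 11.8). The collagen receptor gene DDR1 had 8.44 and 9.15. Of 32 shared loci at these genes none was at least 2-fold higher or lower, and the median log2 ratio was −0.04.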

How the data were processed

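H3K9me3 chromatin immunoprecipitation was sequenced from 1 CXCL12 and 1 control library, and the input library was not analysed here. Cells had been fixed for 15 min with 1% formaldehyde, and 30 µg of chromatin was used, per the labels' protocols. The submitters' processing notes name BWA 0.7.12, an aligner, SICER 1.1, a caller of broad regions, and the build hg19, without settings. The authors deposited signal in 2 forms, per the file headers, as the average of a region's bins and as its top bin. The lengths and the numbers of bins, CpG islands, promoters and genes per region were also deposited by the authors. Whether signal was scaled between libraries or corrected with the input, and the depth, are unknown. What a difference in depth did to signal and called length was not tested, and signals carry no counting interval.

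Overlapping regions (1 bp or more, in either library) were chained into loci, and the signal of a locus was averaged over its bins. Ratios of CXCL12 to control are log2 with no pseudocount and exist only for loci called in both libraries. Gene starts were solved from the deposited distances between a region's highest bin and the gene start, for 60 of 61 genes. Where a gene had 1 region, the strand came from the RefSeq promoter table. Coordinates are as deposited in hg19, with an origin (0 or 1) that the files do not state. All 61 symbols matched RefSeq protein-coding genes, 59 of them exactly, and 52 gene entries that a spreadsheet had turned into numbers were left out. Intervals on shares are exact (Clopper-Pearson) at 95% and cover the spread over genes or loci, not between cultures. Python 3.11.15, pandas 2.3.3 and scipy 1.17.1 were used. Chaining, ratios and the sorting into families were tested on simulated data with at most 1 region per library and locus. The gene starts, promoter windows and gene shares were not part of that test. The members and lists were chosen with earlier results of these data known. Loci were named in each family by the 4 highest signals, the highest and lowest ratio and the strongest single-library locus of each kind, together with promoter-bearing loci and the genes with the most loci or length. Loci named beyond that were chosen after their values were seen. Search for protease motifs in proteins was planned and not done, as no protein sequences were used here.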

Additional observations from a re-analysis of the deposited data

How the results depend on the processing

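With 1 library per condition, no setting here speaks to the variation between cultures. The share of member loci called in both libraries was 86.1% at loci at or above the median signal of all loci. The share of all loci under that cut is not given, so this value is not a result about the members. The share of member loci stayed within its interval, which treats loci as independent, for loci inside a member gene and for family symbols only. It also did so when 50% of the shorter side had to be covered. The median log2 ratio was 0.13 by the highest bin, 0.15 by summed signal and 0.062 at the 52 loci that held a single region in each library with a length ratio of at most 1.2, where all loci chosen in the same way had 0.07, 0.11 and 0.062. It was −0.01 after centring on the median of all shared loci. By summed signal 3 loci were at least 2-fold higher. With a 1.5-fold rule 2 were lower (in ADAMTS17 and ADAM32), against 1.92% of all shared loci, and 0 higher, against 2.28%. The numbers of loci past 2-fold were otherwise 0 in each direction, also at loci annotated to a single gene, a setting chosen after seeing the data. The number of member genes with a region ran from 43 to 58 after CXCL12 and from 42 to 56 in control over the settings. No paired analysis was possible because each condition has 1 library. Depth is unknown, and its bearing on loci called in a single library was not tested.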

Other observations

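COL26A1, a collagen listed under its older symbol EMID2, had a pair of loci inside the gene on chromosome 7 that were called in both libraries over 5.8 kb each. At 101049200 to 101055799 the mean signal was 7.90 after CXCL12 and 7.65 in control, with highest bins of 22 and 18. The locus at 101120200 to 101125999 had 5.8 after CXCL12 and 5.03 in control, and its highest bins were 21 and 17.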
